A study of Mus musculus with 27 samples.

Results

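The RNA levels of 7 genes for the chains of cardiac myosin, Myh6, Myh7, Myh7b, Myl2, Myl3, Myl4 and Myl7, were described across postnatal life in the mouse heart. They were chosen by symbol, and each had 1 row among the 22855 gene rows of both deposited count tables. RNA-Seq had been done on 15 whole hearts of C57Bl/6 mice, 3 at each of 5 ages (postnatal day 1, then 4 and 14 weeks, then 1 and 1.5 years), and on 12 samples of PDGFRα cardiac fibroblasts, with 3 samples each at postnatal day 1 and 4 weeks and 2 each at the 3 later ages. No mouse carried a transgene or received a treatment, so age and tissue are the only labelled differences. For the fibroblasts, the atria and valves were removed, the ventricles were digested with liberase and cells were sorted on PDGFRα, a surface receptor of cardiac fibroblasts. Whether the atria stayed on the whole hearts is not given in the sources used here. The study's methods describe separate animals and separate sets of fibroblasts at each age. The study also states that the fibroblasts came from the hearts that were sequenced. The labels do not tie a sample to 1 mouse, nor a fibroblast sample to its heart. P-values therefore measure the spread between these samples, called hearts below where they are whole hearts. Fits over both tissues treated every sample as separate, so a possible pairing of heart and fibroblasts was not modeled.

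Myosin is the motor of the thick filament of the sarcomere, and each molecule holds a pair of heavy chains, which hydrolyze ATP and pull on actin, with an essential and a regulatory light chain on each neck. In mice the fetal ventricle uses much of the slow β heavy chain, encoded by Myh7, and around birth it is replaced by the fast α heavy chain, encoded by Myh6. Myl2 and Myl3 encode the ventricular regulatory and essential light chains, and Myl7 and Myl4 are their atrial counterparts, which the ventricle also uses before birth. Myh7b encodes a slow-type heavy chain at lower level.

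Among the 7 genes in whole hearts the largest fold change between neighboring ages was the loss of Myh7 RNA after birth, 153-fold between postnatal day 1 and 4 weeks, while Myh6 RNA rose 2.69-fold. Myh7 then rose again 5.27-fold between 4 and 14 weeks and stood highest among the later ages at 1.5 years, 10.8-fold below its level at birth. Of the 7 genes, 6 differed among the 5 ages in whole hearts in edgeR's quasi-likelihood test (adjusted p from 1.72e-07 for Myh7 to 0.04 for Myl4), where 34.3% of 17995 tested genes did, and Myl7 did not pass (adjusted p = 0.172). In PDGFRα fibroblasts all 7 were 28.0-fold to 982-fold lower than in whole hearts. In the fibroblasts RNA of Myh6, Myh7, Myl2, Myl3 and the atrial Myl4 fell by 4 weeks, where 6.2% of 18759 tested genes were called lower.

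Myh6 and Myh7 lie next to each other on chromosome 14 (GRCm38, minus strand), at chr14:54941921-54966927 and chr14:54970684-54994626. The other members are apart from them: Myh7b at chr2:155611212-155634307 on the plus strand, Myl2 at chr5:122100951-122113472, Myl3 at chr9:110741861-110769798 and Myl4 at chr11:104550663-104595753, all on the plus strand, and Myl7 at chr11:5896637-5898782 on the minus strand. The transcripts of Myh6 and Myh7 share long stretches, so reads of 65 bases from these stretches have no unique gene. Of all 65-base words in the longest protein-coding transcript, 17.7% for Myh6 and 22.6% for Myh7 also occurred in another gene's transcripts, and 1069 words were common to both. For Myh7b, Myl3, Myl4 and Myl7 it was 0%, and for Myl2 it was 0.364%. The longest identical stretch, shown because it marks where the α and β chains cannot be told apart, held 245 bases, from base 4482 of the Myh6 and base 4636 of the Myh7 transcript in GENCODE's annotation.
Myh6 and Myh7, identical: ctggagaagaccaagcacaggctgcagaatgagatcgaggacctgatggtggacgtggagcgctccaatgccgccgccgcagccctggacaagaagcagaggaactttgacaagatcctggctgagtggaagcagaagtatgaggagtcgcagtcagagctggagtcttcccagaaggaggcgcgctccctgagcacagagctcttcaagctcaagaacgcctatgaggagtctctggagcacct
The antisense RNA Mhrt overlaps 484 bases, or 5.62%, of the Myh7 exons; where counting does not use strand, which the sources used here do not say, reads of both cannot be told apart there.

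The regions around the start sites of the Myh6 and Myh7 transcripts are given because RNA of these neighbors moved in opposite directions. Each covers 250 bases before to 50 bases after the start in RefSeq (GRCm38.p6), at chr14:54966558-54966857 for Myh6 and chr14:54994577-54994876 for 1 of the 2 Myh7 entries, both read on the minus strand.
Myh6: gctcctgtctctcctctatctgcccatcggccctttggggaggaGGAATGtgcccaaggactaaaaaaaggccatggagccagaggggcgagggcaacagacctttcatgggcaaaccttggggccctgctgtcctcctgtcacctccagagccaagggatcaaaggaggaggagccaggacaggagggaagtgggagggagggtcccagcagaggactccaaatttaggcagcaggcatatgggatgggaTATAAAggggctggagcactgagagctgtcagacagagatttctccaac
Myh7: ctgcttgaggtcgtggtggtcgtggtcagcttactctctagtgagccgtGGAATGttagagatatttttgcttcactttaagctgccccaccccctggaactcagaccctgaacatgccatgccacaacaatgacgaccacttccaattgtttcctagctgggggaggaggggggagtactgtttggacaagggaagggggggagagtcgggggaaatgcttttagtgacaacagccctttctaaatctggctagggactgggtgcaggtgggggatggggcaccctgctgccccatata
Capitals mark matches to CATTCC (core of the M-CAT element, here on the reverse strand in both) and to the letters TATAAA. The other Myh7 entry held no match to any motif searched. The letters CATTCC on either strand was found in 14.7% of 32851 promoters of this length and TATAAA in 13.6%; the GATA motif written TGATAA was searched on both strands too, as were the CArG box and the MEF2 box, and had no match in this pair. A CArG box, present in 1.63% of promoters, was matched for Myl3 and Myl7, which also held CATTCC. These matches are descriptions of the sequence only.

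Each heavy-chain gene carries a microRNA in an intron on its own strand. They were not measured here, and are shown because the host genes' levels below are the nearest readout; capitals mark the seed, bases 2 to 8.
mmu-miR-208a-3p, in Myh6: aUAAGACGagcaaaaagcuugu
mmu-miR-208b-3p, in Myh7: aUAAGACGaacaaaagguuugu
mmu-miR-499-5p, in Myh7b: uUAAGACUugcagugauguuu
The seed UAAGACG was shared by the microRNAs of Myh6 and Myh7, and that of Myh7b ended in a different base, UAAGACU. The mature sequences are from RefSeq.

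Total counts ranged from 46091271 to 67984404 per whole heart and from 54615898 to 76758831 per fibroblast sample, and 3 counts, taken as the limit of detection, corresponded to 0.0391 to 0.0651 CPM, the counts of a gene scaled to a library of 1e+06 counts. Reads of mitochondrial genome genes made up 10.8% to 34.5% of counts in hearts. The 7 genes took 3.13% to 5.06% of all counts in each whole heart. The labelled tissues matched their own markers. Without TMM scaling, 12 cardiomyocyte markers other than myosins summed to 47348 to 90681 CPM in hearts and 356 to 878 CPM in fibroblasts. In the fibroblasts at 1 year Atp2a2, which other cells use too, was 342 to 377 CPM of sums of 356 to 411 CPM. The sums of 6 fibroblast markers were 1448 to 3036 CPM in hearts and 26577 to 64957 CPM in fibroblasts. Those of 5 endothelial markers overlapped between tissues, at 375 to 965 CPM in hearts and 117 to 1432 CPM in fibroblasts. In whole hearts, Xist, the RNA of the inactive X chromosome, was at most 0.57 CPM at 14 weeks and 1 year and 34.8 to 129 CPM at 1.5 years, whereas Y-linked Ddx3y was 35.5 to 52.4 CPM at 14 weeks and at most 0.397 CPM at 1.5 years. At 1 year Ddx3y was 68.7 to 99.0 CPM. Fibroblasts had at most 0.315 CPM of Xist at 14 weeks and 1 year and 424 and 429 CPM at 1.5 years. Age at 1.5 years against 14 weeks or 1 year therefore cannot be told apart from sex. At postnatal day 1 and 4 weeks each sample held both RNAs: Xist was 124 to 334 and 6.48 to 140 CPM in hearts, with Ddx3y at 4.58 to 26.6 and 1.64 to 33.9 CPM, and in fibroblasts Xist was at least 137 CPM and Ddx3y at least 24.8 CPM. Whether these samples held RNA of more than 1 mouse was not tested, and the steps between them and 14 weeks also differ in these markers.

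Levels below are CPM scaled by TMM factors within a tissue. Myh6 was 13167, 10017 and 10298 CPM in the hearts at postnatal day 1 and 33874, 29877 and 26363 CPM at 4 weeks. It then stood at 21146, 23615 and 22622 CPM at 14 weeks, 16219, 15837 and 22656 CPM at 1 year and 14081, 14166 and 15171 CPM at 1.5 years. Every heart at 4 weeks was above every heart of the other ages, and every heart at 1.5 years was below those at 14 weeks and 1 year. From postnatal day 1 to 4 weeks the log2 fold change of Myh6 was 1.43 (SE 0.17, adjusted p = 1.11e-05, edgeR). From 4 to 14 weeks it was -0.42 (SE 0.16, adjusted p = 0.265), although the groups did not overlap.

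Myh7 was 4500, 5493 and 2458 CPM at postnatal day 1, and only 23.4, 33.1 and 24.8 CPM at 4 weeks. The log2 fold change was -7.26 (SE 0.62, adjusted p = 4.37e-07). No heart at a later age came within the range at birth. At 14 weeks Myh7 was 191, 138 and 98.6 CPM, at 1 year 72.6, 64.7 and 308 CPM and at 1.5 years 432, 488 and 236 CPM. All 3 hearts at 14 weeks were above all 3 at 4 weeks (log2 fold change 2.40, SE 0.50, adjusted p = 0.0222), and the smallest adjusted p among the 7 genes belonged to Myh7 there. Leaving out 4 weeks replicate 1 or 3, or 14 weeks replicate 1 or 2, took this call away, with log2 fold changes of 2.13 to 2.42 and adjusted p of 0.0688 to 0.121. At 1 year, replicate 3 stood apart from the other hearts. Without it the change from 14 weeks was -1.06 in place of 0.05, neither past the threshold (adjusted p = 0.211 and 0.992, edgeR). The antisense Mhrt, which overlaps Myh7 exons, was 65.1, 47.7 and 49.7 CPM in the hearts at 4 weeks, above Myh7 in each. At 1 year Mhrt was 84.3, 98.6 and 176 CPM, also highest in replicate 3. The part of Mhrt reads in the Myh7 counts was not tested.

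Myh7b was 159, 198 and 176 CPM at postnatal day 1 and 113, 52.5 and 64.9 CPM at 4 weeks, all lower. It fell by 1.21 on the log2 scale (SE 0.31, adjusted p = 0.0111), though without 4 weeks replicate 3 the adjusted p was 0.0534. Later it was 81.7, 89.4 and 63.0 CPM at 14 weeks, 67.2, 101 and 163 CPM at 1 year and 59.7, 38.0 and 64.2 CPM at 1.5 years. The highest of these, 1 year replicate 3, is the heart that was also highest for Myh7 at that age. Over the whole span, postnatal day 1 to 1.5 years, Myh7b fell by 1.72 on the log2 scale (SE 0.31, adjusted p = 0.000534).

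**Figure D1:**
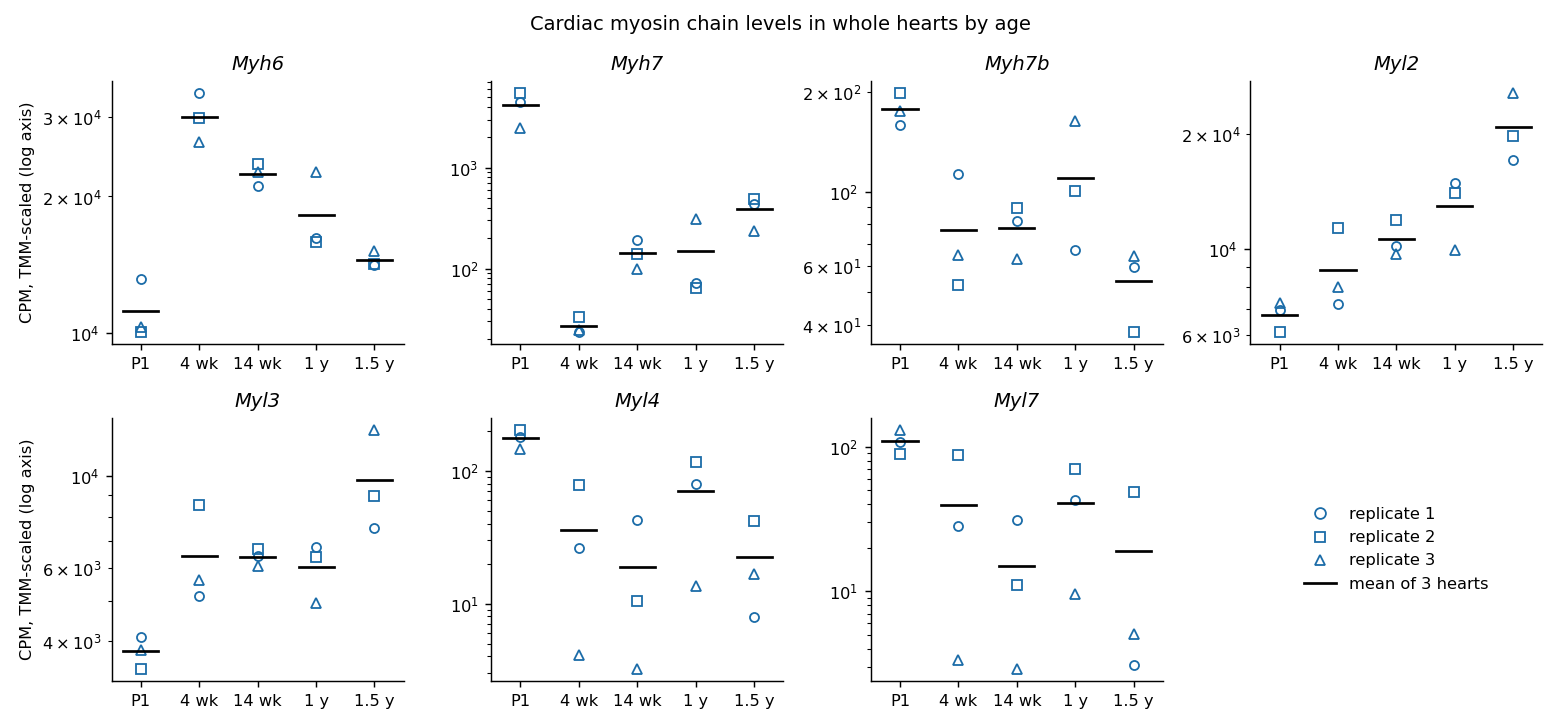
Level of each myosin chain gene in every whole heart (symbols, replicates 1 to 3) at 5 ages, in TMM-scaled CPM on a log axis, with the mean of the 3 hearts as a bar. Myh7 drops from a mean of 4150 CPM at postnatal day 1 to 27.1 CPM at 4 weeks, while Myh6 rises from 11161 to 30038 CPM; Myl4 and Myl7 spread widely among hearts of 1 age.

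The ventricular regulatory light chain Myl2 was 6945, 6085 and 7266 CPM at postnatal day 1 and 7195, 11383 and 7961 CPM at 4 weeks, with overlap. Its log2 fold change was 0.39 (SE 0.20, adjusted p = 0.203). It was 10185, 11943 and 9737 CPM at 14 weeks and 14899, 13986 and 9985 CPM at 1 year. At 1.5 years the values of 17129, 19668 and 25523 CPM were above every heart of the other 4 ages. Between postnatal day 1 and 1.5 years Myl2 rose by 1.62 on the log2 scale (SE 0.20, adjusted p = 1.65e-05), or 3.07-fold.

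Its partner Myl3, the ventricular essential light chain, was 4098, 3433 and 3823 CPM at postnatal day 1 and 5145, 8554 and 5613 CPM at 4 weeks. All 3 hearts at 4 weeks were higher (log2 fold change 0.77, SE 0.21, adjusted p = 0.0175). The call was lost without postnatal day 1 replicate 2 or 3 or 4 weeks replicate 2, with adjusted p of 0.0892, 0.0611 and 0.12. Myl3 then stayed between 4938 and 6771 CPM in the 6 hearts of 14 weeks and 1 year and was 7490, 8992 and 12963 CPM at 1.5 years. Between postnatal day 1 and 1.5 years it rose by 1.37 on the log2 scale (SE 0.21, adjusted p = 0.000125). Transcript length moved with this span too: the median over 896 genes with transcripts of 500 to 1200 bases, the class of both light chains, was 0.83, and with each sample's trend on length removed Myl2 was at 0.78 and Myl3 at 0.62, both still called. Over the 15 hearts the log2 levels of Myl2 and Myl3 had a Pearson r of 0.908, a description, since the hearts share their ages.

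The atrial light chains behaved differently from these: they were highest at birth and varied widely between hearts within each later age. Myl4 was 179, 204 and 146 CPM at postnatal day 1 and 26.3, 77.5 and 4.10 CPM at 4 weeks. All hearts at the 4 later ages, 3.22 to 116 CPM, were below those at birth. At 4 weeks the log2 fold change was -2.29 (SE 0.96, adjusted p = 0.115), and at 1.5 years it was -2.98 (SE 0.99, adjusted p = 0.0297). Leaving out postnatal day 1 replicate 1 or 2, or 1.5 years replicate 1 or 3, removed the call at 1.5 years (adjusted p of 0.0587 to 0.0881).

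Myl7 was 107, 88.7 and 131 CPM at postnatal day 1, and 28.1, 87.6 and 3.36 CPM at 4 weeks. It was 31.2, 11.0 and 2.90 CPM at 14 weeks, 43.0, 70.4 and 9.63 CPM at 1 year and 3.07, 48.9 and 5.07 CPM at 1.5 years. The hearts of each later age were all below those at birth, but the spread within an age reached 26.1-fold at 4 weeks and no comparison passed the test (log2 fold change -1.46, SE 1.06, adjusted p = 0.388 at 4 weeks; -2.52, SE 1.10, adjusted p = 0.0904 at 1.5 years). Without 1.5 years replicate 2 the latter was -4.74 with an adjusted p of 0.00934.

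The spread of Myl4 and Myl7 was shared. Within each of the 4 later ages the 3 hearts had the same order for Myl4 and Myl7, and over all 15 hearts their log2 levels had a Pearson r of 0.955. Among 7 atrial marker genes, Sln, which encodes the calcium pump regulator sarcolipin, and Mybphl, a myosin-binding protein H-like gene of atria, also kept this order at all 4 later ages, Stard10 at 3, Nppa and Dkk3 at 2, and Bmp10 and Kcnj3 at 0. At 4 weeks Sln was 0.51, 9.05 and 0 CPM in replicates 1, 2 and 3, in which Myl7 was 28.1, 87.6 and 3.36 CPM. Kcnj3 was 83.4, 32.7 and 53.6 CPM in the same hearts, lowest in replicate 2. At 1 year Sln was 13.5, 19.3 and 0.0201 CPM, and at 1.5 years 0.754, 8.01 and 2.19 CPM. The 7 atrial markers summed to 175 to 468 CPM per heart at the later ages, and 1 of them had 0 counts in 7 of these 12 hearts. The part that atrial tissue in a sample played in the levels of Myl4 and Myl7 was not tested. In such bulk samples fewer cells of a type and less RNA per cell cannot be told apart.

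**Figure D2:**
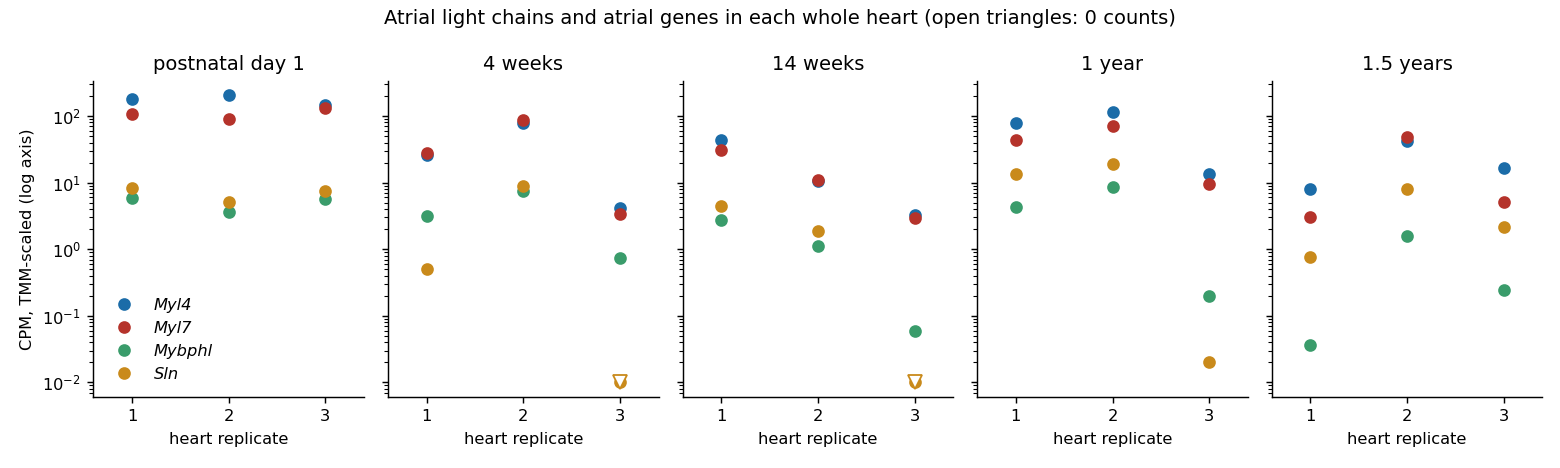
TMM-scaled CPM (log axis) of the atrial light chains Myl4 and Myl7 and the atrial genes Mybphl and Sln in each whole heart, 1 panel per age. Of the 7 atrial markers only Mybphl and Sln, which kept the order of Myl7 at all 4 later ages, are shown. At 4 weeks replicate 2 is highest for all genes shown and replicate 3 lowest, from 87.6 to 3.36 CPM for Myl7. Open triangles mark 0 counts.

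Between postnatal day 1 and 4 weeks 4 of the 7 genes passed the test, 2 higher and 2 lower, where 18.2% of all tested genes were called; their median log2 fold change was -1.21, against -0.09 for all genes. From 4 to 14 weeks 1 of 7 was called against 1.61% of all genes. From 14 weeks to 1 year it was 0 of 7, with 0 at an unadjusted p under 0.05 in edgeR and 0 of 7 called by DESeq2, against 0.972% of all genes. Across the whole span to 1.5 years, over which Ddx3y differed as well, it was 5 of 7, where 31.8% of all genes were called. Myh6 did not pass over that span (log2 fold change 0.37, SE 0.16, adjusted p = 0.09). The scaling of libraries matters at birth: with library size alone the median of all genes from postnatal day 1 to 4 weeks moved from -0.09 to -0.60, Myl2 was at -0.12 and Myl3 at 0.26 without a call (adjusted p = 0.352), and Myl4 was called at -2.81 (adjusted p = 0.0439). Over the span to 1.5 years Myh6 was at -0.22 with that scaling (adjusted p = 0.291), but at 0.97 with the length trend removed (adjusted p = 0.000461), at 0.41 in DESeq2 (adjusted p = 0.0227) and at 0.43 without mitochondrial genome genes (adjusted p = 0.0461), so both its direction and its call depend on the processing.

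Between 14 weeks and 1.5 years 2 of the 7 genes were called, where 12.8% of all genes were. Myl2 rose by 0.97 on the log2 scale (SE 0.20, adjusted p = 0.00542) and Myh6 fell by 0.63 on it (SE 0.16, adjusted p = 0.0178). Myh7 was at 1.43 (SE 0.48, adjusted p = 0.062) and Myl3 at 0.62 (SE 0.21, adjusted p = 0.0641), with no overlap between the ages for either. Leaving out 14 weeks replicate 2 or 3, or 1.5 years replicate 2, ended the call for Myh6 (adjusted p of 0.0591 to 0.0663).

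Transcript length moved with this comparison. Over 12972 genes the change between 14 weeks and 1.5 years, on the log2 scale, had a Spearman rho of -0.555 with the length of the longest transcript. The 896 genes with transcripts of 500 to 1200 bases had a median of 0.74, and the 848 genes of 5500 to 6500 bases a median of -0.54. Myl2 with 889 bases and Myl3 with 1125 bases belong to the short class, and Myh6 with 6113 and Myh7 with 6230 bases to the long one. With each sample's trend on transcript length removed, Myh6 was at -0.05 (adjusted p = 0.936), Myl2 at 0.25 (adjusted p = 0.191) and Myl3 at 0.01 (adjusted p = 1.00), none of them called. Of these 4 genes Myh7 moved against its length class, at 1.98 (adjusted p = 0.0221). The offset is a correction by length alone.

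**Figure D3:**
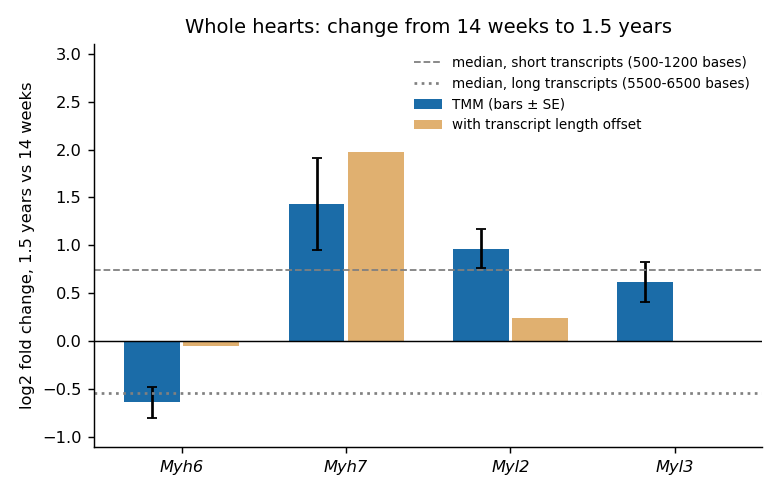
Log2 fold change between 14 weeks and 1.5 years in whole hearts for 4 myosin genes by TMM scaling (dark bars, with SE) and with the transcript length offset (light bars), with the medians of short and long transcripts as dashed and dotted lines. Myl2 at 0.97 and Myh6 at -0.63 lie close to the medians of 0.74 and -0.54, and Myh7 at 1.43 does not.

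Per kilobase of merged exon, the heavy chains and light chains can be set beside each other. At postnatal day 1 Myl2 had 3469 ± 313 CPM per kilobase (mean ± SD, n = 3), Myl3 1852 ± 164, Myh6 1659 ± 259 and Myh7 482 ± 180. Myl7 had 184 ± 35.7, Myl4 38.0 ± 6.30 and Myh7b 26.8 ± 2.96. At 4 weeks Myl2 was at 4537 ± 1144, Myh6 at 4466 ± 559 and Myl3 at 3149 ± 904. These levels depend on the length used: Myl2 has 1950 bases of merged exon and a longest transcript of 889 bases, and Myh6 has 6726 and 6113 bases, so no order between light and heavy chains is drawn from them. At 1.5 years the values were Myl2 with 10653 ± 2207, Myl3 with 4802 ± 1383, Myh6 with 2152 ± 90.1 and Myh7 with 44.7 ± 15.3.

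The replacement of isoforms was measured as a share of counts per kilobase within each heart, which does not depend on library scaling. The Myh7 share of Myh6 plus Myh7 was 21.1%, 30.0% and 15.7% at postnatal day 1 and 0.054%, 0.0865% and 0.0733% at 4 weeks. It was 0.701%, 0.456% and 0.339% at 14 weeks, 0.348%, 0.318% and 1.05% at 1 year and 2.34%, 2.62% and 1.20% at 1.5 years. The hearts at birth held a mean of 22.2% ± 7.21 (SD, n = 3) and the 12 later hearts 0.799%. This difference of 21.4 percentage points gave p = 0.0044 in an exact permutation test, two-sided, the smallest these group sizes allow. After adjustment over 18 share tests it was 0.0264. The size of this share too depends on the length used. Without length scaling, or with the longest or the longest protein-coding transcript, the difference was 25.4 to 25.7 points, with the same p.

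Among the later hearts the Myh7 share was 1.31% on average in the 6 of 1 and 1.5 years and 0.285% in the 6 of 4 and 14 weeks. The groups overlapped and the exact permutation test gave p = 0.026, adjusted p = 0.117, so the rise did not pass after adjustment. Single steps between neighboring ages compare 3 with 3 hearts and cannot give a p under 0.1; the share did not overlap from postnatal day 1 to 4 weeks, from 4 to 14 weeks and from 1 year to 1.5 years. The last of these cannot be told apart from sex, and from 4 to 14 weeks the levels of Xist and Ddx3y differed as well. By the exact permutation test 3 of these 4 steps reached that smallest value, and the step from 14 weeks to 1 year gave p = 0.9.

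For the light chains the Myl7 share of Myl2 plus Myl7 was 4.84%, 4.60% and 5.61% at postnatal day 1 and 0.0592% to 2.48% in the 12 later hearts. Its means were 5.02% ± 0.531 (SD, n = 3) at birth and 0.761% later. The Myl4 share of Myl3 plus Myl4 was 1.88%, 2.55% and 1.65% at birth and 0.0234% to 0.794% later, with means of 2.03% ± 0.468 and 0.232%. Neither overlapped, and each gave p = 0.0044 in the exact permutation test (adjusted p = 0.0264). The size of these shares depends on the length used: with the longest protein-coding transcript, an alternative chosen after the data were seen, the difference was 3.94 points in place of 1.80 for Myl4, and 2.00 in place of 4.26 for Myl7, with the same p.

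**Figure D4:**
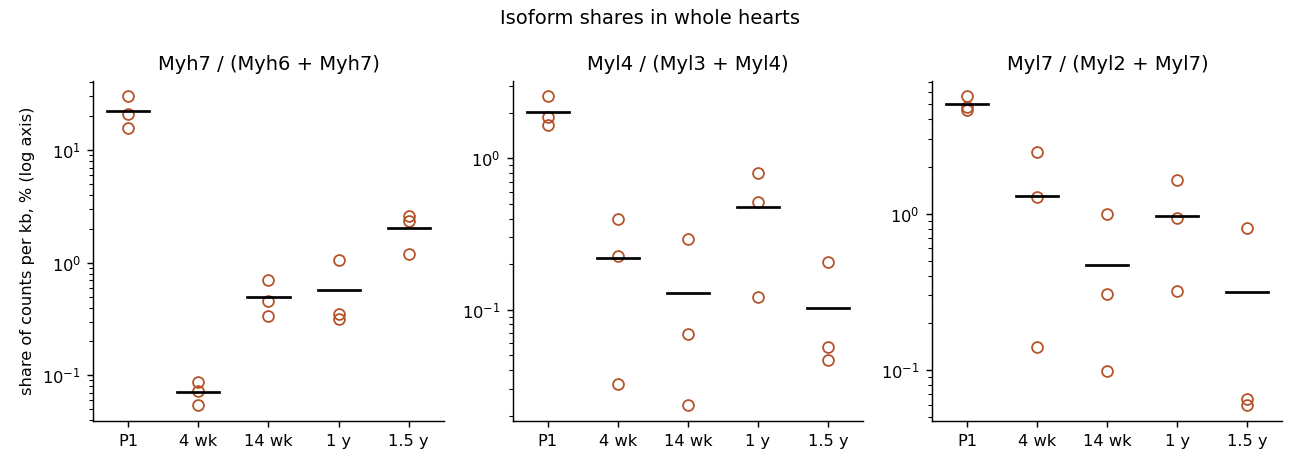
Share in percent (log axis) of Myh7 in Myh6 plus Myh7, Myl4 in Myl3 plus Myl4 and Myl7 in Myl2 plus Myl7, from counts per kilobase, in each whole heart (circles), with bars for the mean of 3 hearts. The Myh7 share falls from a mean of 22.2% to 0.0712% at 4 weeks and is 2.05% at 1.5 years; the atrial light chain shares scatter within each later age.

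Other genes of the contractile apparatus were listed and counted for the step from postnatal day 1 to 4 weeks in whole hearts, where 18.2% of all 17995 tested genes were called, 2179 higher and 1097 lower, with a median of -0.09. Of 19 sarcomere partners 13 rose and 1 fell, with a median log2 fold change of 0.93. Tnni1, the slow troponin I of the fetal heart, fell from 1515 ± 50.6 to 1.53 ± 1.31 CPM (log2 fold change -9.95, SE 1.06, adjusted p = 4.36e-06), and the titin cap gene Tcap rose from 130 ± 16.2 to 540 ± 26.9 CPM (log2 fold change 2.05). The tropomyosin gene Tpm1 rose by 1.64 on the log2 scale. Of 9 smooth muscle and nonmuscle myosins 3 rose and 2 fell: Myh14 rose by 4.14 and Myl12a by 0.80, and Myl9 fell by 2.98 and Myh10 by 0.73.

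Against the same 18.2% of all genes, among 9 tested kinases, phosphatase subunits and chaperones of myosin 3 rose and 0 fell, with Mylk4 at 4.68 and Ppp1r12b, a subunit of myosin phosphatase, at 0.98. Of 15 tested regulators of myosin genes 1 rose and 2 fell, a share near that of all genes and so no result about this list. The rise was in Thrb, a thyroid hormone receptor, from 2.06 ± 0.903 to 15.6 ± 8.19 CPM (log2 fold change 2.92, SE 0.50, adjusted p = 0.000549). The falls were in Hey2, a repressor known from ventricular muscle, at -3.82, and in Thra, the other thyroid hormone receptor, at -0.55. Neither of 2 tested skeletal and fetal sarcomeric myosins was called, and 4 of the 7 on that list and 1 regulator were not analysed here.

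The genes whose log2 levels followed each member most closely over the 15 hearts were read as a description from 8478 genes of at least 10 CPM. For Myh6 they were Slc39a14 (Pearson r = 0.948), Tmem82 and Slc44a2, and for Myh7 they were Eif2a (r = 0.91), Arfgap3 and Shmt1. Myh7b was closest to Cpsf7 (r = 0.926), and Paxbp1 was also among its closest genes. Myl2 was closest to Mrpl30 (r = 0.98), Mien1 and Chmp2a, and Myl3 to Phb (r = 0.984), Glrx5 and Ndufaf5. Both Myl4 and Myl7 had Dkk3 as their closest gene, at r = 0.857 and 0.847, followed by Ttc23 and Atcayos for Myl4, and Rnps1 was also among the closest genes for Myl7. Dkk3 was on the atrial list but was higher in every PDGFRα fibroblast sample than in whole hearts, so it does not mark atrial tissue alone. Within the members, Myh6 and Myh7 had an r of -0.844.

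In PDGFRα fibroblasts the same genes were read as muscle RNA that came along with the sorted cells, in CPM and as a percent of the mean whole-heart level at the same age. Averaged over the 5 ages, all 7 were lower than in hearts (adjusted p from 4.77e-19 to 4.6e-08, edgeR), where 56.8% of 20650 genes differed and 29.1% were lower. The log2 difference ran from -9.94 for Myl3 (SE 0.33) and -9.71 for Myl2 (SE 0.28) to -4.81 for Myl4 (SE 0.51). Myh6, at -9.44, lay among the first of these and Myh7 at -7.22 between them. The 7 genes together made up 0.000991% to 0.0582% of the fibroblast counts.

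At postnatal day 1 the 3 fibroblast samples had 297, 197 and 284 CPM of Myh6, or 1.30% to 2.04% of the heart. At the later ages Myh6 was 16.7, 17.6 and 45.7 CPM at 4 weeks, 43.2 and 33.5 CPM at 14 weeks, 3.89 and 11.2 CPM at 1 year and 3.19 and 38.7 CPM at 1.5 years, which is 0.0216% to 0.263% of the heart. No later sample overlapped with those at birth. Myl2 was 0.901% to 0.985% of the heart level at birth and 0.0246% to 0.3% later, and Myl3 was 0.745% to 0.992% and then 0.0227% to 0.245%. Relative to the heart, the median of 12 cardiomyocyte markers other than myosins was 1.09% to 1.30% at birth and 0.0302% to 0.34% later. In the test from postnatal day 1 to 4 weeks 4 of these 12 were called lower and 0 higher. Of all 18759 tested genes, 15.5% were called and 6.2% were lower. Atp2a2, a calcium pump gene that other cells use too, was the highest of the 12 markers in each sample. It did not go down in CPM, with means of 280 at birth, 349 at 4 weeks and 433 at 1.5 years. The part of the sort or digestion in this was not tested.

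In edgeR's test from postnatal day 1 to 4 weeks 5 of the 7 genes fell in fibroblasts, where 15.5% of 18759 tested genes were called and 6.2% were lower. Myh7 fell by 7.35 on the log2 scale (SE 1.27, adjusted p = 0.00154) and Myh6 by 3.28 (SE 0.72, adjusted p = 0.00726). Myl2, Myl3 and Myl4 fell by 2.30, 2.32 and 2.92 (adjusted p = 0.00623, 0.0175 and 0.0158). Without 4 weeks replicate 2 it was 3 genes, as Myl3 and Myl4 missed the threshold (adjusted p = 0.0727 and 0.0539). Myl3 also missed it without 4 weeks replicate 1 (0.0655) and Myl4 without postnatal day 1 replicate 2 (0.0731). Over any age 5 of 7 were called against 19.9% of all genes, from 4 to 14 weeks 0 of 7 against 3.87%, with 0 at an unadjusted p under 0.05 and 0 by DESeq2.

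At 1.5 years against postnatal day 1, 4 of 7 were lower, where 16.3% of genes were called and 6.46% were lower. Ddx3y differed between these ages as well. Myh6 fell by 3.63 on the log2 scale (adjusted p = 0.0113), Myh7 by 5.04 (adjusted p = 0.0215), Myl2 by 2.58 (adjusted p = 0.00813) and Myl3 by 2.51 (adjusted p = 0.0265), while Myl4 was at -2.63 (adjusted p = 0.0523). Fitted on these ages alone, Myh6, Myh7 and Myl3 missed the threshold (adjusted p = 0.0541, 0.0773 and 0.0612). The 2 samples at 1.5 years differed widely, with 0 and 445 counts of Myh7, 0 and 72 of Myh7b and 1 and 110 of Myl7 in replicates 4 and 5. Leaving out replicate 4 moved Myl3 to -1.74 (adjusted p = 0.126). Leaving out replicate 5 moved Myh6 to -6.35, Myl2 to -4.04 and Myl3 to -4.25, all called.

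For 3 of the 7 genes the step between postnatal day 1 and 4 weeks was unlike in fibroblasts and hearts by an interaction term, all lower in fibroblasts relative to hearts, where 7.14% of genes were called and 3.96% were lower. The log2 difference of the changes was -4.73 for Myh6 (SE 0.74, adjusted p = 0.000207), -3.10 for Myl3 (SE 0.61, adjusted p = 0.002) and -2.70 for Myl2 (SE 0.53, adjusted p = 0.00199). For Myh7, which fell in both tissues, it was -0.10 (SE 1.08, adjusted p = 1.00), and this wide error does not show that the changes were alike. The Myh7 counts per 100 Myh6 counts were 24.1, 77.9 and 41.6 in the fibroblasts and 34.2, 54.8 and 23.9 in the hearts at birth, with overlap.

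At 4 weeks these proportions parted. Myh7 had 3.61, 3.13 and 2.07 counts per 100 Myh6 counts in fibroblasts and 0.0692, 0.111 and 0.0939 in hearts. In absolute numbers the fibroblast samples held 45, 41 and 70 counts of Myh7, at 2.05% to 3.47% of the heart level, beside 0.0568% to 0.152% for Myh6. The antisense Mhrt was at most 0.0541 CPM in these fibroblast samples, near the level of 3 counts. In the hearts at 4 weeks Mhrt was 47.7 to 65.1 CPM. With 3 samples against 3, an exact test of the proportions cannot go below p = 0.1.

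Myl4 had the smallest difference between the tissues. It was 8.64, 16.1 and 8.50 CPM at birth and 0.346 to 1.80 CPM in the 9 later samples, from 20 to 123 counts. Relative to hearts this was 3.61% to 6.72% at birth and 1.69% to 10.7% later, above the percents of Myl2 and Myl3 in every sample. The heart level in these percents is a mean of hearts that differed widely at the later ages. At 14 weeks Myl4 was 37.4, 8.20 and 2.80 CPM in them without TMM scaling. The fibroblasts came from ventricles, and whether the hearts held atria is not given. Per 100 counts of Myl3, Myl4 had 6.15 to 79.9 counts in the fibroblast samples and 0.053 to 5.95 in the hearts. Myl7, the other atrial light chain, was above the percents of Myl2 and Myl3 in some samples only. It was 3.69% of the heart in replicate 1 at birth, 8.53% in replicate 5 at 1.5 years and 0% in replicate 4 at 14 weeks. Its counts were 0 to 18 in 8 of the 9 later samples and 110 in replicate 5 at 1.5 years. Of the atrial list, Sln and Mybphl had 0 counts in 9 and 9 of the 12 fibroblast samples, and Bmp10 and Kcnj3 had at most 17 and 28 counts. Other genes of that list were present. Stard10 had 1 to 276 counts at birth and 115 to 570 at the later ages. Nppa had 415 to 1063 counts at birth, 12 to 18 at 4 weeks and 0 at 1 year. Dkk3 had at least 10488 counts in every sample.

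Myh7b and Myl7 were at or near the limit of detection in most fibroblast samples. Myh7b had 444, 2 and 141 counts at birth, 4, 6 and 6 at 4 weeks, 0 and 61 at 14 weeks and 1 and 0 at 1 year. Myl7 had 427, 8 and 41 counts at birth, 4, 4 and 5 at 4 weeks, 0 and 1 at 14 weeks and 0 and 18 at 1 year. Replicate 1 at birth was highest for both, and in neither did a comparison between ages pass the test (adjusted p = 0.206 for Myh7b and 0.189 for Myl7 from postnatal day 1 to 4 weeks).

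**Figure D5:**
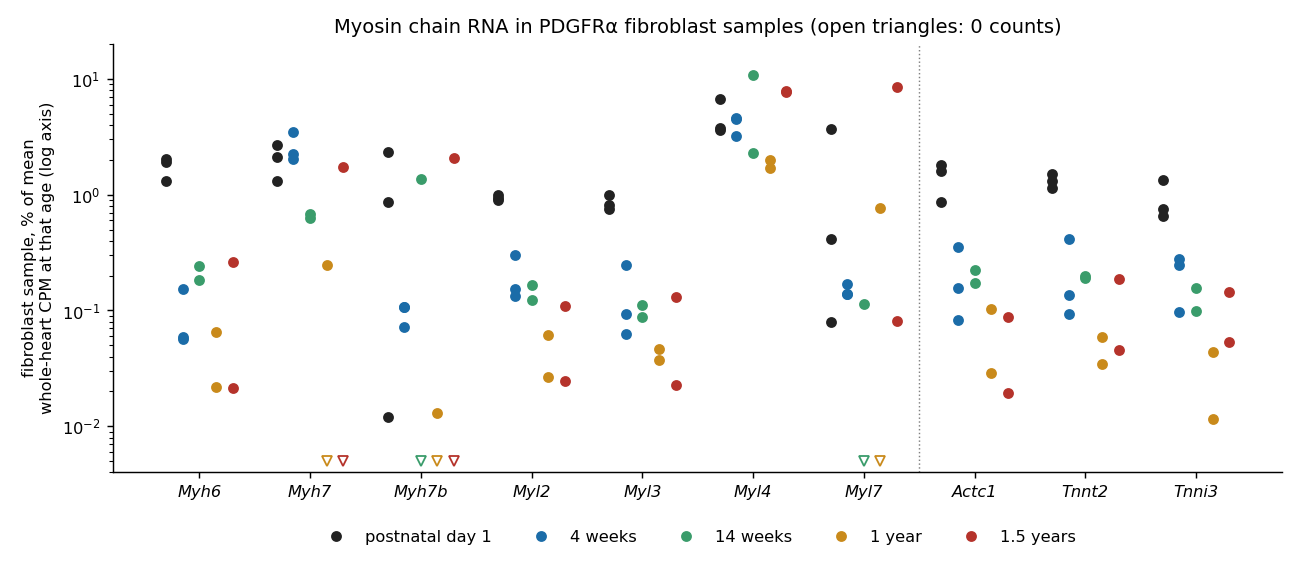
Level of the 7 myosin chain genes and 3 other cardiomyocyte genes in each PDGFRα fibroblast sample, as a percent of the mean whole-heart CPM at the same age (log axis), colored by age; open triangles are samples with 0 counts. Myh6, Myl2 and Myl3 lie at 0.745% to 2.04% at postnatal day 1 and at most 0.3% later, and Myl4 stays at 1.69% or more.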

How the data were processed

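RNA from whole hearts or PDGFRα sorted fibroblasts was sequenced as single-end 65-base reads, and the authors aligned them to mm10 with STAR 2.5.3a and deposited raw whole-number counts per gene symbol. The strand setting and the annotation are not given in the sources used here. Samples were grouped by tissue and age from the labels, and no 2 samples of a group were identical. Genes were filtered with filterByExpr and fitted with edgeR 4.0.16 in R 4.3.3 (TMM, quasi-likelihood F test, Benjamini-Hochberg over all tested genes, threshold 0.05), per tissue, and over all 27 samples to compare tissues. SE is the log2 fold change divided by the root of F. Lengths are from GENCODE M21, which matched 95.4% of symbols. Shares were compared by exact permutation tests, two-sided (scipy 1.17.1). Alternatives were other size factors, filters, DESeq2 1.42.0, a length offset, a replicate block, fits without mitochondrial genome genes and without each sample. The fits were tested on simulated counts. All 7 genes were named; list genes were the 2 largest called rises and falls at 10 CPM or more, and similar genes the 3 highest Pearson r, of which some are not reported here. Members and lists were chosen with earlier results of these data known.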

Additional observations from a re-analysis of the deposited data

Results flagged for a closer look

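An interaction term in edgeR's quasi-likelihood test set PDGFRα fibroblasts apart from whole hearts in the step between postnatal day 1 and 4 weeks for Myh6 (log2 difference -4.73, adjusted p = 0.000207), Myl2 (-2.70, adjusted p = 0.00199) and Myl3 (-3.10, adjusted p = 0.002). In all 3 the RNA was lower at 4 weeks than at birth in 3 of 3 fibroblast samples, while in hearts Myh6 and Myl3 rose and Myl2 was at 0.39. The call held without each of the 27 samples in turn. No group had the 4 samples needed to look for single outlying samples.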

How the results depend on the processing

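With groups of 2 or 3 samples, low counts of Myh7b and Myl7 in fibroblasts and no record of strand, small changes would be missed. Of 379 values of single genes under alternatives other than leaving out a sample, 335 kept their direction and side of the threshold, 30 newly passed it, 11 no longer passed and 3 turned: with library size only, Myl2 from postnatal day 1 to 4 weeks in hearts (-0.12), Myh6 between postnatal day 1 and 1.5 years (-0.22) and the tissue difference of Myh7 (0.34). The cause was not tested. Counts of genes called among the 7 moved too. From 4 to 14 weeks in hearts it was 2 with library size only, where calls over all genes went from 289 to 496. From 14 weeks to 1.5 years in hearts it was 4 with at least 10 counts in every sample. With the length offset it was 1, where calls over all genes went from 2298 to 972, and with the replicate block and length offset 1. Between postnatal day 1 and 1.5 years in fibroblasts it was 2 with only the ages compared. For fibroblasts against hearts it was 4 with at least 10 counts in every sample, which left 4 genes to test. Calls over all genes under the other settings are not given here, so no shift is read as particular to the 7.

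Leaving out 1 sample in turn, the count called was 0 to 1 in hearts from 4 to 14 weeks, 1 to 4 from 14 weeks to 1.5 years and 3 to 5 in fibroblasts between postnatal day 1 and 4 weeks. The log2 change of Myh7 from 14 weeks to 1 year ran from -1.06 to 0.41 and its tissue difference from -0.35 to 0.17. The difference of the Myh7 share between older and younger hearts ran from 0.766 to 1.23 points (unadjusted p from 0.013 to 0.0519, exact permutation test) and that of the Myl7 share from -0.443 to 0.0763.

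The deviations of samples from the mean of their age were compared between ages within a tissue. With the same replicate number, correlations ran from -0.0619 to 0.102 in hearts and -0.0316 to 0.0356 in fibroblasts. With different numbers they ran from -0.127 to 0.106 and from -0.0549 to 0.0549. Such values cannot decide whether the numbers pair samples. Whether a number ties a fibroblast sample to a heart was not tested. With the replicate block, Myl4 passed from postnatal day 1 to 4 weeks in hearts (-3.01, adjusted p = 0.0189) and did not in fibroblasts (-2.87, adjusted p = 0.0712), and Myl7 passed to 1.5 years in hearts (-3.64, adjusted p = 0.00951). In fibroblasts it could be fitted only for postnatal day 1 and 4 weeks, and over both tissues only for the tissue difference.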
